A study of Ramazzottius varieornatus with 27 samples.

Results

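The 100 transcripts described here are those that were most abundant in non-irradiated animals of the tardigrade Ramazzottius varieornatus. They were chosen by the mean of the 3 control libraries, and they are 100 of the 14532 transcripts in the deposited table (0.688%). RNA was sequenced at 4, 6, 9, 12, 15, 18, 21 and 24 h after a gamma-ray dose of 500 Gy and from non-irradiated controls. Each of these 9 groups has 3 samples, each made from 30 whole animals, which gives 27 libraries. All came from cultured animals fed on green algae, and the labels give no mutant, transgene, drug, sex or age for any group. Irradiated animals were kept on agar plates until sampling, and no sampling time is given for the controls. The series' design text calls the 3 samples of a group technical replicates, and a p-value here measures only how far such samples spread. In RNA of pooled whole animals, fewer cells of a type and less RNA per cell cannot be told apart.

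Terrestrial tardigrades survive almost complete drying and very high doses of ionizing radiation. In animals generally, the most abundant messenger RNAs encode products needed in large amounts, such as ribosomal proteins, components of muscle and cytoskeleton, enzymes of energy metabolism and secreted or yolk proteins. In R. varieornatus, proteins that protect dry cells are also known to be made in quantity without a stress. Because abundant transcripts make up much of a messenger RNA pool, a change in them also moves the relative level of everything else in that pool. None of the transcript IDs matched a gene name in the sources used here (0 matched), so which of these functions the 100 transcripts carry is not known here. Members are therefore given by their place in the control order, with place 1 the most abundant, and only 2 of them by ID.

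The values are TPM, a transcript's share of the library after division by its length, multiplied by a TMM factor, which sets libraries on a common scale. Library sums ranged from 891312 to 1140371. Transcripts above 0 numbered 9575 (9 h replicate 1, the fewest) to 13667 (6 h replicate 2). No member was at 0 in any library. TPM keeps no depth, so how deeply each library was sequenced is unknown from these values. Amplification also differed by the study's methods. PCR ran for 15 cycles in 5 libraries (4 h, and 2 of the 3 at 6 h), for 21 cycles in the 16 that follow (6 h replicate 3, then 9 h up to 21 h) and for 23 cycles at 24 h, with no number given for the controls. Cycle number and time after irradiation therefore cannot be told apart between 4 h and any time from 9 h on.

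In the control order, abundance dropped steeply over the first few places. The control mean was 35141 at place 1, which is 3.19% of the mean control sum, 14646 at place 2, 12411 at place 3, 10440 at place 4 and 9155 at place 5. It was 5723 at place 10 and 1911 at place 50. The threshold fell where values were dense. The last members, at places 98, 99 and 100, had control means of 1195, 1194 and 1188, and the first transcripts outside, at places 101, 102 and 103, had 1168, 1165 and 1159. The 100 members come from 100 different genes. At places 45, 70 and 99 the gene has more than 1 transcript model, among which the counting divides shared reads.

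The members held between 22.1% and 29.4% of each library's sum. In the controls they held 29.4%, 27.9% and 28.3% in replicates 1, 2 and 3. At 4 h the share was 27.6%, 26.7% and 25.4%, and at 6 h it was 27.4%, 27.2% and 24.0%. The last of these is replicate 3, with 21 cycles instead of 15. At 9 h the share was 25.3%, 24.4% and 26.2%, at 12 h 27.7%, 26.2% and 25.2%, and at 15 h 26.3%, 23.6% and 25.6%. It was 25.1%, 27.2% and 22.1% at 18 h, 23.8%, 24.3% and 26.1% at 21 h, and 28.9%, 25.1% and 26.4% at 24 h. A single irradiated library, 24 h replicate 1, lay within the range of the controls, and the other 23 lay below it.

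This share averaged 28.5% ± 0.76 over the controls, 26.6% ± 1.10 over the 4 h libraries, 25.3% ± 0.92 over those of 9 h, 24.8% ± 2.57 over those of 18 h and 26.8% ± 1.92 over those of 24 h (SD, n = 3 each). Since the control values chose the members, a higher share in the controls is favoured by the choice, and no test is given. Choosing on a single control gives only the part of that effect that comes from the spread between control replicates. The 100 transcripts chosen on control replicate 1 alone held 29.6% of its sum and 27.7% of that of the other 2 controls. Those chosen on replicate 2 held 28.0% and 28.4%, and those on replicate 3 held 28.4% and 28.3%. What choosing on the controls as a group adds against the other groups cannot be seen this way. Between irradiated groups the ranges overlapped widely. By cycle number, the share was 25.4% to 27.6% (median 27.2%) over 5 libraries with 15 cycles, 22.1% to 27.7% (median 25.3%) over 16 libraries with 21 and 25.1% to 28.9% over the 3 with 23. Whether cycle number has a part in the share was not tested.

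**Figure D1:**
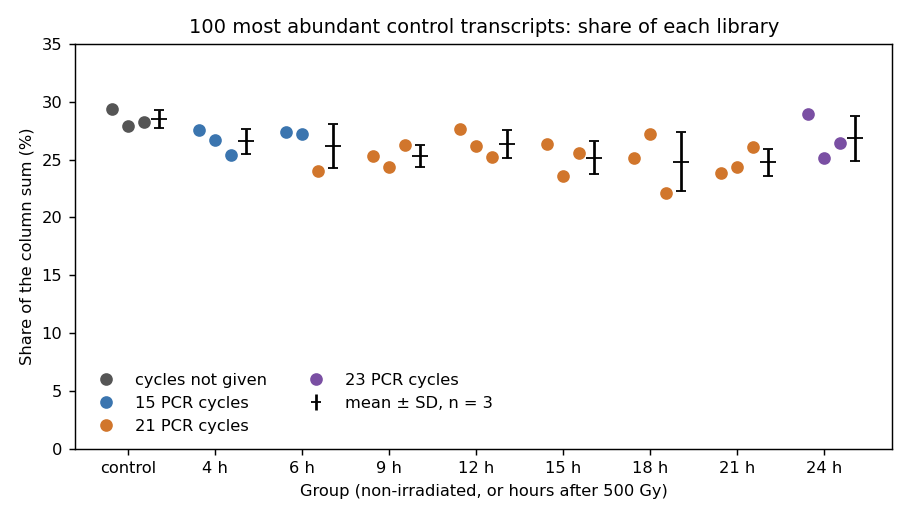
Share of each library's sum held by the 100 transcripts, in percent, against group from control to 24 h. Points are libraries, coloured by PCR cycles, and bars give the mean ± SD of 3. The controls lie at 27.9% to 29.4%, and of the 24 irradiated libraries only 24 h replicate 1, at 28.9%, reaches that range.

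The most abundant transcript of the controls was also the highest in every group mean, and in all but 2 libraries, 18 h replicate 3 and 21 h replicate 2, where place 3 was above it. Place 1 had values of 40183, 32818 and 32423 in the controls. It had 27295, 22675 and 18394 at 4 h, then 24709, 23463 and 17493 at 6 h. It had 27857, 35275 and 13788 at 18 h, and 40178, 24522 and 21411 at 24 h. The libraries of 18 h and of 24 h differed among themselves by more than the group means did. Relative to the controls, the members' share dropped by 1.94 percentage points at 4 h, and that of place 1 dropped by 1.09. At 21 h the members' share dropped by 3.75 points, and that of place 1 dropped by 0.544. With place 1 taken out of both the members and the library sum, the other members held 22.7% at 21 h. In the controls they held 26.2% ± 0.587 (SD, n = 3).

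The next 4 places took different courses. Place 2 had values of 20612, 10189 and 13138 in the controls. At 4 h these were 7836, 7008 and 5007, and at 24 h 12703, 5892 and 6942. At 18 h it had 2982, 13538 and 2544, so that replicate 2 lay well above the other two. Place 4 showed the same split at 18 h, with 2504, 12305 and 2824, and across the 24 irradiated libraries the log2 values of places 2 and 4 had a Pearson's r of 0.880. That r is a description over libraries that share a scaling and, within groups, a source. The member at place 3 was steady or higher, with means of 12411 (controls), 14568 (4 h), 13429 (12 h) and 18688 (21 h). Place 5 lay between 6965 and 12804 after irradiation, against 9973, 9250.4 and 8242 in the controls. None of these 5 was called between 4 h and any later time.

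Most members were below their control mean after irradiation, as the choice favours. The median ratio to the control mean was 0.973 (4 h), 0.863 (6 h), 0.734 (9 h), 0.747 (12 h), 0.736 (15 h), 0.671 (18 h), 0.697 (21 h) and 0.748 (24 h). Over all tested transcripts it was 1.03 at 4 h and 6 h and lay between 0.937 and 0.968 from 9 h on. Of the 100 members, 58 (4 h), 67 (6 h), 76 (9 h), 77 (18 h), 80 (21 h) and 72 (24 h) were below their control mean. The middle part of the members, between the quartiles, covered 0.816 to 1.07 at 4 h, and 0.468 to 0.935 at 18 h. The lowest ratio at 4 h was 0.321, at place 33, with 738, 1055 and 698 at 4 h, against 3461, 1137 and 3163 in the controls. The highest was 2.07 at place 77. From 15 h on the lowest ratio was that of place 31, with 0.127 at 18 h. These ratios depend on the scaling. With each library set to the same sum, which takes out the TMM factor, the median at 18 h was 0.786 and not 0.671.

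Changes after the first sampling time can be tested, as the irradiated libraries did not choose the members. The fit (limma on log2(value + 1), all 27 libraries, Benjamini-Hochberg adjustment) took in 12820 transcripts that reached a value of 1 in 3 or more libraries, all 100 members included. A call needed both an adjusted p under 0.05 and group means that differed by more than 2-fold. The choice still favours transcripts that were high early, since 86 of the 100 members were also among the 100 highest at 4 h. The 7 comparisons with 4 h share its 3 libraries.

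The members called against 4 h were all lower. At 6 h, 5 members were lower than at 4 h (0.203% of all tested transcripts were lower and 0% higher). At 9 h, 11 were lower (background 5.01% lower and 2.18% higher). At 12 h there were 14 (3.54% and 1.37%), and at 15 h there were 8 (2.24% and 0.92%). The number was 19 at 18 h (5.87% and 2.39%), 17 at 21 h (3.97% and 1.98%) and 8 at 24 h (5.82% and 2.39%). Of the 100 members, 0 were called higher at any of these times with limma. At an unadjusted p under 0.05, 0 (6 h), 4 (9 h), 11 (12 h), 5 (15 h), 4 (18 h), 2 (21 h) and 4 (24 h) members were higher, and 13 to 52 were lower. No share of all tested transcripts was taken at this unadjusted threshold, so these counts stand without a background.

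The shares lower were above the background at each of these times, and at 24 h the 8 members stood near it. Over the 6 times from 9 h to 24 h, 25 members were lower at 1 time or more, against 12.5% of all tested transcripts, and 0 were higher, against 4.61%. The members lower at all 6 times were 3, against 0.632%. This background takes in transcripts of low abundance. The median SD of replicates was larger over all tested transcripts than over members in every group but 6 h. No background of like abundance was used. Among the 25 were 2 of the 20 members at places 1 to 20 (10%), 7 of the 30 at places 21 to 50 (23.3%) and 16 of the 50 at places 51 to 100 (32%), and the remaining 75 were called at no time from 9 h on. The median log2 change of the members against 4 h was -0.05 (6 h), -0.35 (9 h), -0.30 (12 h), -0.34 (15 h), -0.51 (18 h), -0.38 (21 h) and -0.22 (24 h). Over all tested transcripts it was 0.02, -0.14, -0.09, -0.07, -0.14, -0.07 and -0.11 in the same order. Taking out the TMM factor moved the median of all transcripts up by 0.08 to 0.16 on the log2 scale, and that of the members at 6 h to 0.04. Relative to the median of all, 65, 64, 68, 68, 71, 73 and 57 of the members lay lower at 6, 9, 12, 15, 18, 21 and 24 h, and 62, 62, 67, 64, 69, 69 and 55 did without the factor. Calls were fewer without it, with 0 (6 h), 8 (9 h), 12 (12 h), 7 (15 h), 10 (18 h), 11 (21 h) and 6 (24 h) members lower. Of all tested transcripts, 0%, 3.71%, 2.74%, 1.64%, 3.99%, 2.85% and 4.44% were lower in the same order.

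**Figure D2:**
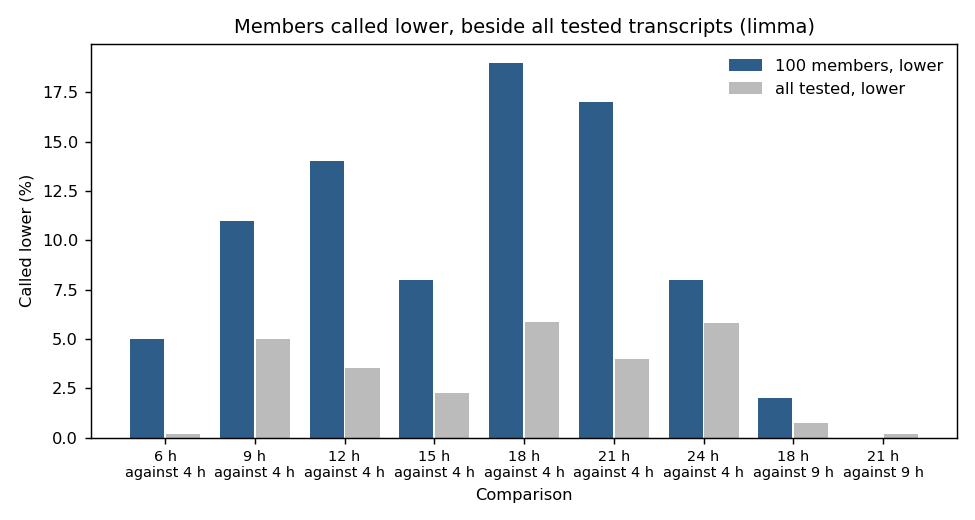
Percentage called lower (limma, adjusted p under 0.05 and group means over 2-fold apart) of the 100 members (blue) and of all 12820 tested transcripts (grey), for each of 9 comparisons between irradiated groups. Against 4 h the members reach 19% at 18 h, beside 5.87% of all.

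The calls at 6 h were the least firm. They were places 36, 79, 86, 90 and 91, with a median log2 change of -2.45. None was called without 6 h replicate 2, without 6 h replicate 3, without 4 h replicate 2 or without 4 h replicate 3, nor with only the 6 h and 4 h libraries in the fit. These fits called 0 to 2 of all tested transcripts lower, against 26 in the reported fit. At 9 h, 19 members were called without 9 h replicate 1, the library with the fewest transcripts above 0, of which 18 were lower and 1 higher (3.84% and 3.61% of all tested transcripts). By the study's methods, 9 h replicate 1 had signs of adapter dimers, and the pool was then selected by size. At 12 h the number was 9 without 4 h replicate 2. Leaving out 4 h replicate 2 gave 4 calls at 15 h, and leaving out 4 h replicate 1 gave 5. At 21 h, leaving out either gave 11. The calls over all tested transcripts fell as well. Without 4 h replicate 2, 249 were lower at 12 h, 169 at 15 h and 274 at 21 h, against 454, 287 and 509 with it. Without 4 h replicate 1, 194 were lower at 15 h and 382 at 21 h.

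The member with the largest drop was g3844.t1, at place 31. Its values were 3319, 2254 and 2290 in the controls and 3239, 3791 and 3557 at 4 h. At 6 h they were 3231, 1782 and 863, the last in the replicate with 21 cycles. From 9 h to 24 h all 18 libraries lay between 268 and 1171, below every control and 4 h library. Its mean was 332 at 18 h, against 3529 at 4 h, a log2 change of -3.40 (SE 0.37, limma adjusted p = 2.61e-06). The log2 change was -2.37 (9 h), -3.05 (12 h), -3.14 (15 h), -2.99 (21 h) and -3.08 (24 h), each called lower. At 6 h it was -1.04 (limma adjusted p = 0.358). It went down the order of abundance to place 346 at 18 h, and was at place 23 at 4 h.

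The transcript g13325.t1, at place 91, first stood higher at 4 h than in the controls and then lower than both. It had 1304, 1344 and 1203 in the controls, 1951, 2240 and 2328 at 4 h and 1232, 898 and 1069 at 6 h. The 4 h libraries lay above all those of the controls and of 6 h. Later values were 609, 566 and 516 at 9 h, 329, 351 and 427 at 12 h and 365, 560 and 549 at 15 h. They were 410, 302 and 323 at 18 h, 466, 383 and 324 at 21 h and 328, 346 and 406 at 24 h. From 9 h on no library was above 609, and at 4 h none was below 1951. The log2 change against 4 h was -1.03 at 6 h (SE 0.17, limma adjusted p = 0.0190), -1.94 at 9 h (limma adjusted p = 1.59e-06) and -2.66 at 18 h (limma adjusted p = 1.78e-09). The replicates of this transcript were close, and its standard error was less than that of g3844.t1.

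**Figure D3:**
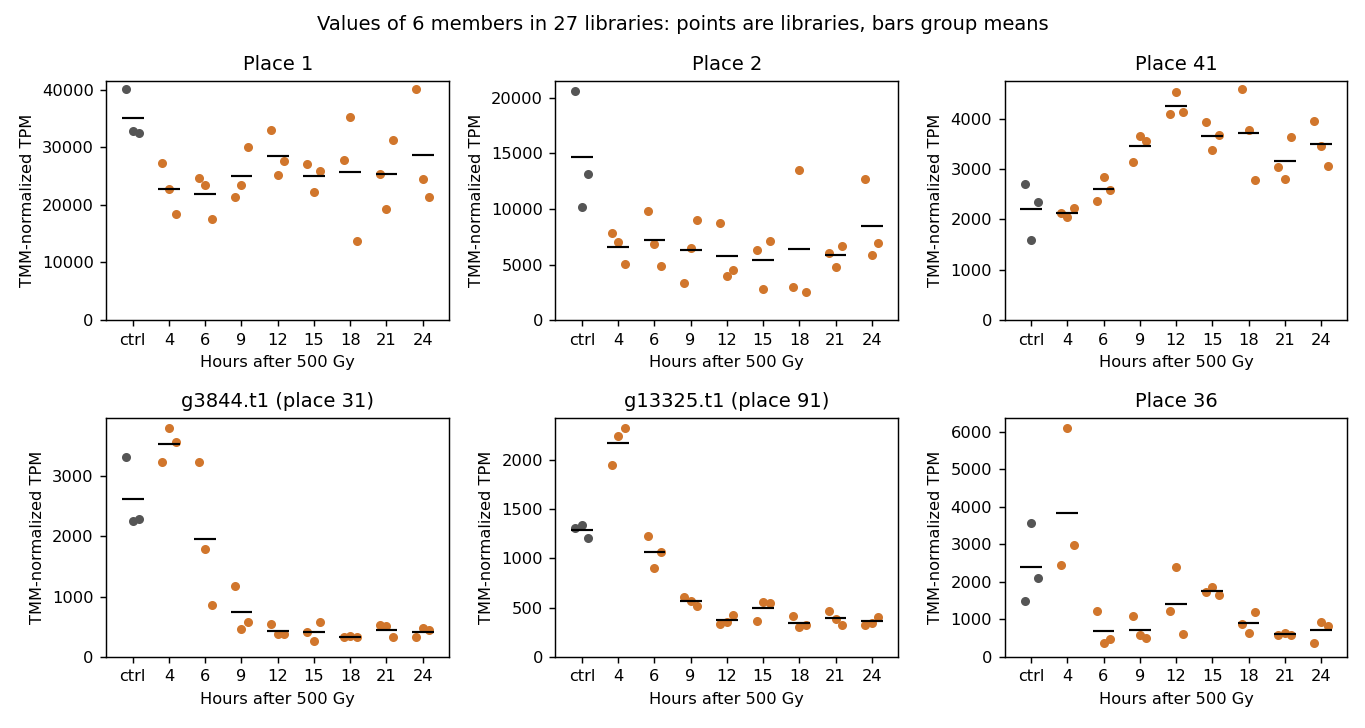
Values of 6 members in each library (TMM-scaled TPM), by group from control to 24 h. Points are libraries and bars group means of 3. The transcripts g3844.t1 and g13325.t1 are at most 1171 and 609 in every library from 9 h on. Place 41 is above its 4 h libraries in every library from 6 h on, and places 1 and 2 vary widely at 18 h.

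Place 49 was lower at all 6 times as well. It had 2088, 2227 and 1577 in the controls, 3414, 4344 and 4200.2 at 4 h, and 782, 467 and 403 at 18 h. The 4 h libraries lay above the controls and those of 18 h below them, with a log2 change of -2.91 at 18 h against 4 h (limma adjusted p = 2.42e-06). Place 73 had 597, 463 and 405 at 18 h, against 2077, 2682 and 2312 at 4 h. At 9 h its log2 change was -0.90, with a ratio short of the threshold, and it was called lower at the other 5 times. Across the 24 irradiated libraries, the log2 values of places 49 and 73 had a Pearson's r of 0.959, those of places 31 and 49 of 0.936 and those of places 31 and 91 of 0.923. Over all 4950 pairs of members the median r was 0.166. Places 31, 49, 73 and 91 were taken up for their drop after 4 h. A drop shared over the same libraries raises r by itself, so these r are a description.

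Another set dropped at 6 h and partly returned. Place 36 had 1486, 3575 and 2105 in the controls and 2457, 6091 and 2986 at 4 h. It had 1215, 374 and 480 at 6 h, in the replicates with 15 cycles as well as the one with 21. At 15 h the values were 1740, 1871 and 1653 and the difference from 4 h did not pass (limma adjusted p = 0.210), and at 21 h they were 572, 627 and 590. Place 79 followed it (Pearson's r = 0.894 over the 24 irradiated libraries), with 1913, 3867 and 1571 at 4 h, 804, 159 and 555 at 6 h, and 1729, 1552 and 1569 at 15 h. In both, 4 h replicate 2 was the highest library of all 27. The pair was chosen after its values were seen, so its r is a description.

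Of the members called lower from 9 h on, place 17 is the most abundant after place 11, and its values at 4 h were already below those of the controls. Its control values were 4255, 4123 and 3512, and those at 4 h were 2407, 1914 and 1418. It had 958, 495 and 759 at 12 h, a log2 change of -1.39 against 4 h (limma adjusted p = 0.00154). At 24 h it had 1709.5, 1353 and 1583, which overlapped the 4 h libraries. Place 98 had 1141, 1287 and 1166 at 4 h, then 736, 602 and 627 at 9 h, 818, 803 and 549 at 21 h, and 497, 554 and 667 at 24 h, so that most of its drop was present at 9 h.

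Some members went up without passing the fold threshold. Place 41 had 2713, 1588 and 2350 in the controls and 2132, 2046 and 2238 at 4 h. At 12 h it had 4101, 4531 and 4129, above every control and 4 h library. The ratio to 4 h was 1.99, with a log2 change of 0.99 (SE 0.20, limma adjusted p = 0.00164), just under the ratio of 2 that a call needs. Without the TMM factor the ratio was 2.17 (limma adjusted p = 0.00025), and place 41 was then the 1 member called higher at 12 h. Its adjusted p was also under 0.05 at 9 h, 15 h, 18 h and 24 h, with ratios of 1.62, 1.72, 1.74 and 1.63. The other members with an adjusted p under 0.05 and a higher value were place 48 at 9 h, 12 h and 18 h, and places 32, 43 and 68 at 12 h, with ratios between 1.25 and 1.49. Place 42 had the largest mean ratio to control at 12 h, at 2.10, with 3979, 4459 and 5437 at 12 h and 3342, 2467 and 2514 at 4 h, and did not pass against 4 h (limma adjusted p = 0.0805).

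Some large differences between group means were not called, and their replicates spread widely. Place 33 had 822, 4306 and 5184 at 9 h and 738, 1055 and 698 at 4 h, a log2 change of 1.69 with a standard error of 0.77 (limma adjusted p = 0.128). Place 29 had 7317, 1657 and 5962 at 24 h, against 4447, 1937 and 638 at 4 h, so that the groups overlapped (log2 change 1.24, limma adjusted p = 0.248). In 18 h replicate 2, place 29 had 6998, against 1375 and 1778 in the other replicates, and place 33 had 4228, against 328 and 708. Places 29 and 33, a pair chosen after its values were seen, had a Pearson's r of 0.768 over the 24 irradiated libraries. At the other end, place 63 stayed within 910.2 to 1634 in all irradiated libraries, and its 8 irradiated group means differed by at most 1.16-fold, the least of all members.

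Within 21 cycles, few members were called between the early and late groups. At 18 h against 9 h, 2 members were lower (0.757% of all tested transcripts were lower) and 0 higher (0.312%), with 15 lower and 3 higher at an unadjusted p under 0.05. They were place 49, at 550.6 at 18 h and 1475 at 9 h, and place 73, at 488 at 18 h and 1291 at 9 h, each with a log2 change of -1.38 (limma adjusted p = 0.0284 and 0.0142). Neither was called without 9 h replicate 1 or without 18 h replicate 3. Without the TMM factor, 2 members were lower and place 86 was higher. At 21 h against 9 h, limma called 0 members in either direction (0.187% of all lower and 0.0234% higher), with 8 lower and 4 higher at an unadjusted p under 0.05. The counts at an unadjusted p stand without a background over all tested transcripts.

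The 6 h group holds both cycle numbers. On the log2 scale, 6 h replicate 3 (21 cycles) lay below the mean of replicates 1 and 2 (15 cycles) for 85 of the 100 members and for 51.8% of all tested transcripts. The median difference was -0.31 over members and -0.02 over all. The members' change from 4 h to the mean of 9 h to 21 h was a median of -0.38, with 76 of 100 lower and 58.5% lower over all tested transcripts. Both differences had the same sign in 73 of 100 members, near the 70.2% over all tested transcripts. Pearson's r was 0.491 and Spearman's rho 0.528 across members, and 0.463 and 0.487 across all tested transcripts, which are not independent. Replicates 2 and 1, both with 15 cycles, differed by a median of -0.02 across members, and that difference had an r of 0.438 with the later change (0.118 across all tested transcripts). With 1 library of 21 cycles in the group, the part of cycle number in these differences was not tested.

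To describe which members varied together, the 100 were cut into 5 clusters by 1 minus Pearson's r of their log2 values over the 24 irradiated libraries (Ward's method), a step chosen after the data were seen. As the clusters were cut from the values plotted, their profiles are a description. The largest, A, holds 30 members and was loose, with a median r of 0.375 between members. The median over its members of the log2 difference between group means and 4 h was -0.33 (9 h), -0.87 (18 h) and -0.23 (24 h). Cluster B holds 29 members (median r of 0.698), among them g3844.t1, g13325.t1 and places 49, 73 and 98. It was at -0.73 at 9 h and at -0.68 at 24 h, with the controls at 0.00. Of the 25 members called lower, 10 are in A, 10 in B and 5 in E.

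Cluster C, of 20 members, ran the other way, with a median difference from 4 h of 0.40 at 12 h and 0.18 at 24 h and 0 members called. Cluster D holds 12 members, places 1, 2 and 4 among them. By group means, its controls were above 4 h by a median of 0.42 and 24 h by 0.26, and the other times lay between -0.17 and 0.09. The medians of its single 24 h libraries were 0.65, -0.15 and 0.09. Cluster E is the set of 9 with places 36 and 79. Its median difference from 4 h was -1.66 (6 h), -1.51 (9 h), -0.29 (15 h), -1.40 (21 h) and -0.48 (24 h), and its controls were at -0.34.

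**Figure D4:**
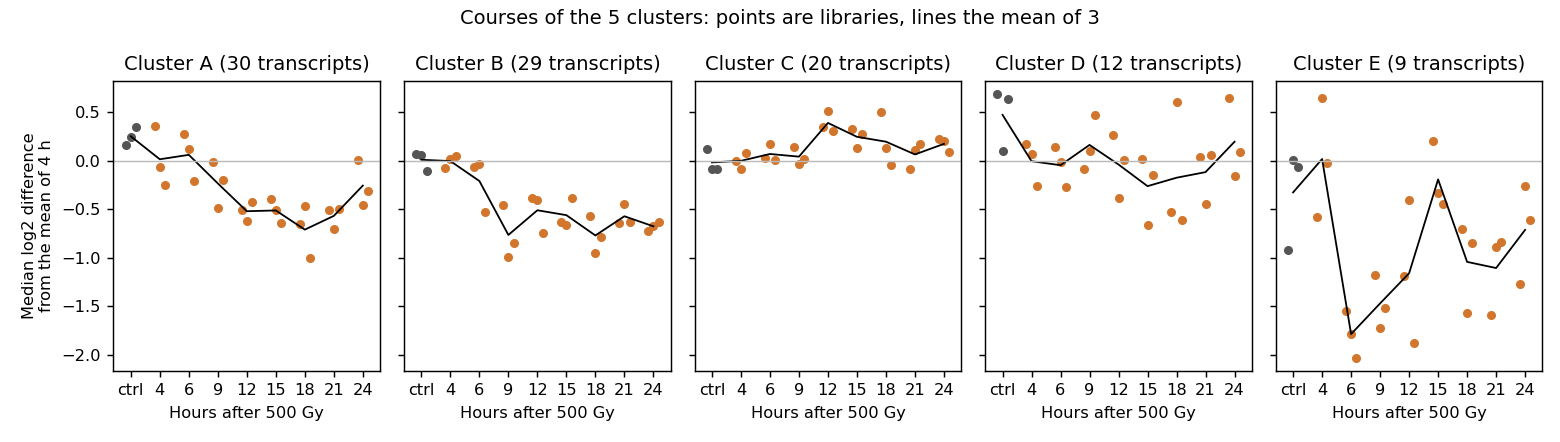
Median over the members of clusters A to E of the log2 difference from the mean of 4 h, by group from control to 24 h. Points are libraries and lines join the means of 3, which differ from the medians of group-mean differences given in the text. The 3 libraries of cluster B lie between -0.72 and -0.63 at 24 h, those of C between 0.31 and 0.52 at 12 h, and those of E between -2.03 and -1.55 at 6 h.

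The clusters' parts of the library sum moved in different directions. Cluster B held 7.03% of the sum over the controls, 7.39% over the 4 h libraries, and 4.89% at both 9 h and 24 h. Cluster C held 5.81% (controls), 6.04% (4 h), 8.87% (12 h) and 7.43% (24 h). For cluster A these were 6.91% (controls), 7.16% (6 h) and 5.29% (18 h). Cluster D differed widely between some replicates, with 8.46%, 5.82% and 7.43% in the controls, 4.57%, 9.21% and 3.33% at 18 h and 9.17%, 4.99% and 6.27% at 24 h. The 24 h replicate and the 18 h replicate with the highest total share are thus the ones where D was highest. The smallest part, that of cluster E, was 1.52% (controls), 1.78% (4 h), 0.540% (6 h) and 1.51% (15 h).

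**Figure D5:**
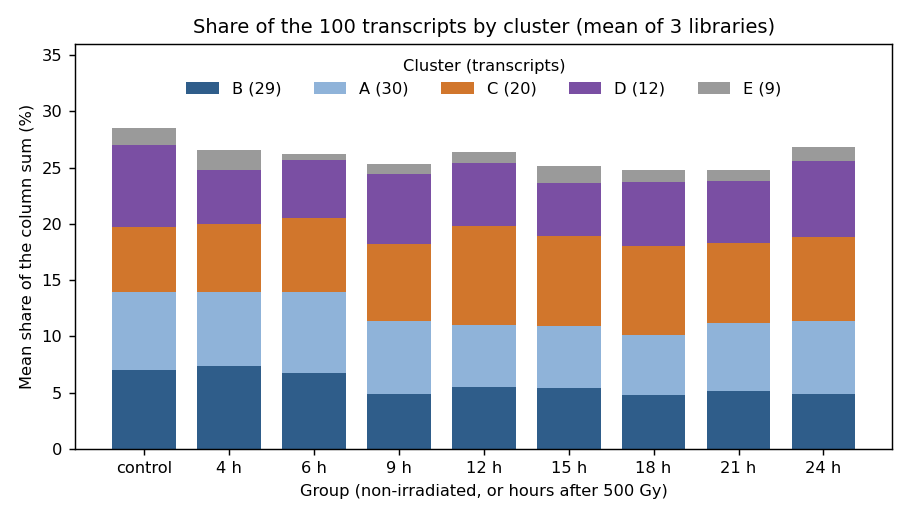
Percentage of the library sum held by each of clusters A to E, as stacked bars of means of 3 libraries per group from control to 24 h. From 9 h on the part of B is less than that of C, which is largest at 12 h, at 8.87%.

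The list of the 100 most abundant transcripts shared fewer entries with that of the controls from 9 h on than at 4 h or 6 h. Of the members, 86 were among the 100 highest of the 4 h means, and 81 (6 h), 73 (9 h), 72 (12 h), 74 (15 h), 71 (18 h), 72 (21 h) and 75 (24 h) of the later ones. In single libraries, 91 to 95 members were among the library's own 100 highest in the controls, 77 to 83 at 4 h, 67 to 70 at 18 h and 75 in each library of 24 h. Between the group means of 12 h to 24 h, 86 to 93 of the 100 highest were shared. In all, 59 members were among the 100 highest of all 9 group means, and 50 in all 27 libraries, among them 19 of places 1 to 20. There were 14 members below place 100 in all 6 group means from 9 h on, and 10 that went past place 300 in some irradiated mean.

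The transcripts that took their places came mostly from just below. Their median control place lay between 136 and 154, depending on the time, and the farthest came from place 630. The mean share of the sum held by each library's own 100 highest was 28.7% (controls), 27.6% (4 h), 27.2% (9 h), 26.3% (21 h) and 28.3% (24 h). The number of transcripts that made up 50% of a library's sum was 482 to 863 in the irradiated libraries and 461 to 495 in the controls.

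Among the irradiated groups, members were most often highest at 4 h and lowest at 18 h. The highest irradiated mean was that of 4 h for 45 members (22.8% of all transcripts), of 12 h for 20 (8.80%) and of 18 h for 0 (12.8%). The lowest was that of 18 h for 30 members (14.7%) and of 9 h for 15 (18.0%). Of the irradiated groups, 4 h also had the largest mean library sum (1080050) and 18 h the smallest (939149). These counts were not repeated without the TMM factor. The highest of the 8 irradiated means was over 2 times the lowest for 35 of 100 members, with a median of 1.75 and a largest value of 10.6 at place 31. Over the 11617 tested transcripts above 0 in every group mean, the median was 1.95, and 5565 were over 2.

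Replicates of the members were closer to each other than those of other transcripts in every group but 6 h. Over members, the median SD of log2(value + 1) was 0.178 (controls), 0.159 (4 h), 0.259 (9 h) and 0.354 (18 h), and over all tested transcripts it was 0.269, 0.211, 0.413 and 0.380 in the same order. At 6 h it was 0.225 over members and 0.218 over all. The 3 members from genes with several models were not alike in this. Place 70 stayed between 1428 and 2321 in all libraries, while place 99 had 3269.8, 2022 and 1632 at 9 h, and 2059, 419 and 2102 at 15 h. Place 100 had close replicates, with 1490.4, 1451 and 1603 at 24 h, against 1163, 1193 and 1208 in the controls.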

How the data were processed

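Reads were single-end and were mapped by the authors to coding sequences with bowtie2. RSEM then gave TPM for each transcript, and a TMM factor was applied per library. The deposited table holds the resulting signal values. As they are not counts and keep no depth, no count test was run and no counting interval is given. Transcripts that reached a value of 1 in 3 or more libraries were tested in R 4.3.3 with limma 3.58.1 on log2(value + 1), with a pseudocount of 1, group means of 9 groups, a trend and Benjamini-Hochberg adjustment per comparison over 12820 transcripts. A log2 change on this scale understates the change of low transcripts. The members and lists were chosen with earlier results of these data known. Comparisons with the controls, which chose the members, were described with no test, and calls were made between irradiated groups only. The IDs given were to be at most 2 in each direction, picked by the largest mean change from members called in 1 direction at the most times after 6 h. Members at the first 5 places and near place 100 are given by place. Other members given by place were chosen after their values were seen. Gene lists fixed by product name could not be matched. Clusters and figures were made with Python 3.11.15, pandas 2.3.3 and matplotlib 3.10.9. The fit was tested on simulated data. Alternatives were a pseudocount of 0.1, no filter, no TMM factor, fits of 2 groups, a replicate block, no fold threshold, each library left out, 50 or 200 members, members chosen on single controls, models summed per gene and, added after the data were seen, members chosen on the mean of all 9 group means. In 3 samples against 3, an exact permutation test cannot go below 0.1, so p-values rest on the spread that limma pools over groups and transcripts.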

Additional observations from a re-analysis of the deposited data

How the results depend on the processing

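Most values held under the alternatives. For the number of members called, 87 alternative values were within 1.5 times the reported one, 9 were above and 21 below, and no named transcript changed direction. The 87 include values for 21 h against 9 h, where the reported number is 0 and an alternative of 0 was counted as the same. At 6 h against 4 h, where 5 members were called, the number was 3 with a pseudocount of 0.1, 1 with no filter, 0 without the TMM factor, 2 with a replicate block and 0 with only both groups in the fit. It was 0 to 6 with a library left out, and over all tested transcripts 0 to 69 were then lower. With no fold threshold, 32 (9 h), 27 (12 h), 15 (15 h), 40 (18 h), 27 (21 h) and 26 (24 h) members were called against 4 h. Of these, 2, 5, 1, 2, 0 and 1 were higher and the others lower. Over all tested transcripts, 9.55%, 10.1%, 7.09%, 11.1%, 9.45% and 9.79% were higher in the same order. Those lower were 9.41%, 6.05%, 4.06%, 9.88%, 6.45% and 9.83%. For 18 h against 9 h the number of members called was 4, all lower, beside 1.02% of all tested transcripts lower and 0.749% higher. Without the TMM factor 10 were called at 18 h and 11 at 21 h, and with only both groups in the fit 11 at 18 h and 0 at 18 h against 9 h. With a library left out, the number was 8 to 19 at 9 h, 9 to 15 at 12 h, 4 to 10 at 15 h, 11 to 17 at 21 h and 0 to 3 at 18 h against 9 h. Of all tested transcripts, 397 to 883 were then lower at 9 h, 249 to 392 at 12 h, 169 to 269 at 15 h and 274 to 450 at 21 h. Members chosen on all 9 group means share 80 with the reported ones. Their number called was 3 at 6 h, all lower, where 0.203% of all tested transcripts were lower and 0% higher. At 18 h against 9 h it was 4, where 0.757% of all were lower and 0.312% higher. Against 4 h it was 8 (9 h), 11 (12 h), 7 (15 h), 14 (18 h) and 13 (21 h), of which 0, 1, 1, 1 and 0 were higher. Of all tested transcripts, 2.18%, 1.37%, 0.92%, 2.39% and 1.98% were higher and 5.01%, 3.54%, 2.24%, 5.87% and 3.97% lower in the same order. The number at 24 h is not given here.

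Without the TMM factor the calls over all transcripts were 526 higher and 476 lower at 9 h (280 and 642 with it), 334 and 351 at 12 h (175 and 454), 234 and 210 at 15 h (118 and 287), 670 and 512 at 18 h (306 and 753), 519 and 365 at 21 h (254 and 509) and 492 and 569 at 24 h (306 and 746). The replicate numbers do not pair samples: over 108 pairs of same-numbered libraries the correlation of deviations from group means was -0.160 to 0.127, and 7 of 27 libraries correlated best with their own number. The replicate block moved no other count by over 1.5 times.

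The share by time from control to 24 h was 21.6%, 19.8%, 20.2%, 19.8%, 21.0%, 19.5%, 19.8%, 19.4% and 21.2% for 50 members, and 36.9%, 34.7%, 33.6%, 32.0%, 32.9%, 31.9%, 31.1%, 31.4% and 33.4% for 200. For members chosen on control replicate 1 alone it was 27.7% in the other controls. Without the TMM factor the median ratio to control was 0.824 (12 h), 0.824 (15 h), 0.786 (18 h), 0.804 (21 h) and 0.833 (24 h). For members chosen on control replicate 3 and set against the other controls it was 0.775 at 15 h and 0.748 at 21 h. With an 18 h library left out it was 0.652 to 0.710 at 18 h. The cause of these differences was not tested. The values keep no depth, and what depth limits was not analysed here.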
